A study of Mus musculus with 8 samples.

Results

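The 9 genes described here encode CTCF and the core subunits of the cohesin complex: Ctcf, Rad21, Smc1a, Smc3, Stag1, Stag2, Smc1b, Stag3 and Rec8. They were measured in whole testis RNA of mice at postnatal day 23 on Affymetrix Mouse430_2 arrays, 1 array per sample. A probe set belonged to them when its gene symbol cell held one of these names alone, which gave 16 of the 45101 probe sets on the array: 3 each for Rad21 and Smc1a, 2 each for Ctcf, Smc3 and Stag2, and 1 each for Stag1, Smc1b, Stag3 and Rec8. The 5 control samples (replicates 1, 2, 4, 6 and 7) are labelled wildtype, and the 3 mutant samples (replicates 3, 5 and 8) are labelled Ctcfl mutant. Ctcfl encodes CTCFL, the germ cell paralog of CTCF, and the study's text describes the mutant as del/del, homozygous for an inherited deletion of exons 1–8 that leaves a GFP sequence joined to the rest of the gene. The same text calls the controls of the array experiment del/+ littermates, which would carry the deletion on one chromosome, whereas their labels say wildtype. The deletion is present in all cells of the animal. Ctcfl itself is not analysed here, and the genotype labels were thus not checked against its RNA.

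Cohesin is a ring formed by 2 SMC proteins and a kleisin, to which a STAG protein binds. It holds sister chromatids together from DNA replication to anaphase, and in interphase it extrudes chromatin loops that come to rest where CTCF, a zinc finger protein, is bound to DNA. In dividing somatic cells the ring holds SMC1A (Smc1a), SMC3 (Smc3) and the kleisin RAD21 (Rad21), with STAG1 or STAG2 bound to it. Germ cells in meiosis also make SMC1B (Smc1b) in place of SMC1A, REC8 (Rec8) in place of RAD21 and STAG3 (Stag3) in place of STAG1 and STAG2, while SMC3 serves both kinds of complex. The comparisons ask whether the RNA of these genes differed between genotypes, whether the meiotic subunits moved apart from their mitotic paralogs, and whether probe sets of the same gene gave the same answer. Because the tissue was whole testis, fewer cells of a type and less RNA per cell cannot be told apart.

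RefSeq promoters (GRCm38.p6, 250 bases before to 50 bases after the start) were matched for 7 of the 9 genes. The sequences of the 3 meiotic genes are shown because these genes sit on the same side of the wildtype arrays in part of the samples, and that of Stag1 is shown as a mitotic paralog. Each runs 5′ to 3′ from 110 bases before to 10 bases after the start, with capitals marking the letters GCGGGAA or the same letters on the opposite strand, TTCCCGC, a core of E2F-type sites.
Smc1b, chr15:85131948-85132067, minus strand: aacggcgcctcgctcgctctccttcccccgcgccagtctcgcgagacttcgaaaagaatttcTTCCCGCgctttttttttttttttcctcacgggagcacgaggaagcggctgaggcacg
Stag3, chr5:138280399-138280518, plus strand: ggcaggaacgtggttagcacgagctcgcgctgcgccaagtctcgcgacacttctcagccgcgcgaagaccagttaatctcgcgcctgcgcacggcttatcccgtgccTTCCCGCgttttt
Rec8, chr14:55618056-55618175, plus strand: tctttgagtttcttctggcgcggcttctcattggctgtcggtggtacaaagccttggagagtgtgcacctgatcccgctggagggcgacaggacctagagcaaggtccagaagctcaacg
Stag1, chr9:100643338-100643457, plus strand: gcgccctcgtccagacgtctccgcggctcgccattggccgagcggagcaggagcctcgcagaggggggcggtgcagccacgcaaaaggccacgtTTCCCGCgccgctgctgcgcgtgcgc
The letters began 48 bases before the start in Smc1b, 3 bases before it in Stag3 and 16 bases before it in Stag1, each time on the opposite strand. In Smc1a they began at base 39 after the start, outside the stretch shown. Rec8, Ctcf and Smc3 did not hold them in their 300 bases. Of all 32851 promoters, 4.6% held the letters at least once on either strand, against 4 of these 7. The 7 promoters were 58.3% to 75.3% G or C over their 300 bases, and the 4.6% was not matched for this. A match describes the letters and was not examined as a binding site.

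Levels below are log2 values, so a difference of 1 is a doubling, and the median level of an array lay between 6.4 and 6.45. Levels of different genes are not set against each other, since probe sets differ in brightness at the same amount of RNA. Testis markers were present: of the lists for spermatogonia, spermatocytes, spermatids, Sertoli cells and Leydig cells, Gfra1 alone lay below the median level of the array on every array. In 2 arrays, wildtype replicate 7 and mutant replicate 8, markers of spermatids and the fat cell markers Adipoq, Cfd and Car3 stood far above the other 6 arrays. The mean level of 6 spermatid markers (Prm1, Prm2, Tnp1, Tnp2, Acrv1, Spaca1) was 11.42 and 10.8 in these arrays, against 8.09 to 9.01 in the other 4 wildtype arrays and 8.1 and 8.31 in the other mutants. The mean of 4 fat cell markers was 7.85 and 7.84 in them, against at most 6.3 in the rest. The fourth of these markers, Lep, did not take part: it was at 4.03 and 3.96 in them and between 3.82 and 4.05 in the rest. Lep lay below the array median on every array. No label joins these arrays, so differences are given for all 8 arrays and, where the sign turned or the size moved by more than 1.5 times, for the other 6. The choice of those 6 was made after the data were seen.

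No probe set of Ctcf or cohesin passed the test for a difference between genotypes. In the limma fit across all probe sets, 0 of 16 had an adjusted p under 0.05 (background 0.00% of all probe sets), and every adjusted p was 1.0. At an unadjusted p under 0.05 the count was also 0 of 16, against 3.47% of all probe sets. The wildtype and mutant arrays overlapped for all 16, where 2.70% of all probe sets had no overlap in either direction. The differences ran from -0.23 to 0.14, with a median of -0.0198 beside 0.00324 over all probe sets, and 7 probe sets lay higher and 9 lower in the mutant. The smallest unadjusted limma p of the 16 was 0.121. None of the 95% intervals extended below -0.54 or above 0.46 on the log2 scale. Each holds for a single probe set, so together they do not exclude larger differences in all 16. Permuting the genotypes over the arrays, an exact two-sided test that cannot give a p below 0.0357, gave p of 0.143 or more for every probe set.

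**Figure D1:**
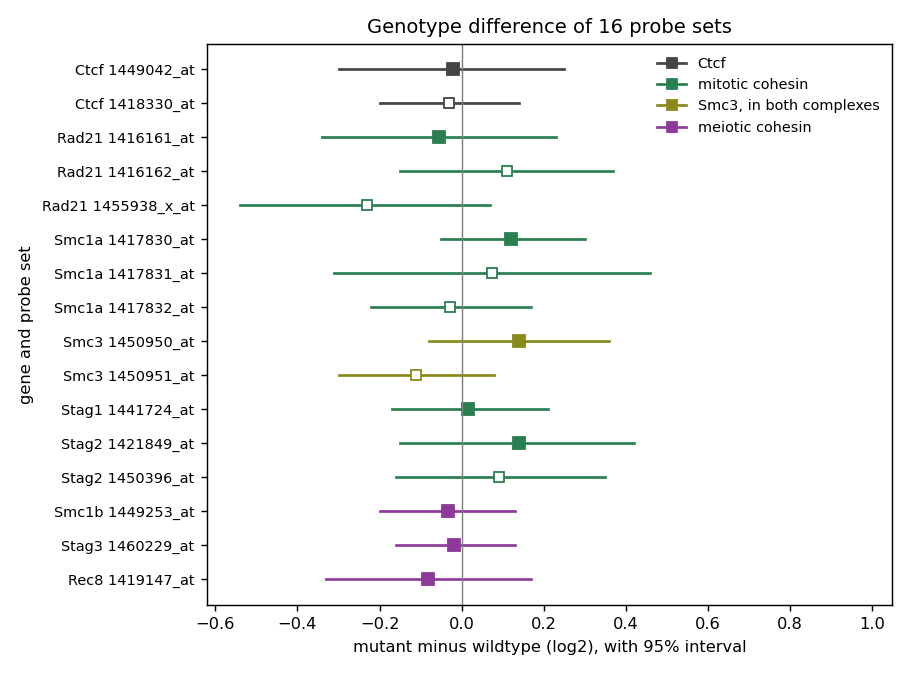
Mutant minus wildtype difference in log2 level (x axis) of the 16 probe sets (y axis), with 5 wildtype and 3 mutant arrays. Squares are the limma differences, filled for the main probe set of a gene and open for its others, bars are 95% intervals, and colours give Ctcf and the kind of cohesin subunit; every bar crosses 0.

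Ctcf, the insulator protein to which CTCFL is related, had a main probe set (1449042_at) at 9.19, 9.26, 9.07, 9.03 and 8.76 in wildtype replicates 1, 2, 4, 6 and 7, and at 9.11, 9.19 and 8.82 in mutant replicates 3, 5 and 8. The means were 9.06 ± 0.19 (SD, n = 5) and 9.04 ± 0.19 (SD, n = 3). Its lowest 2 arrays were wildtype replicate 7 and mutant replicate 8, while the other 6 arrays lay between 9.03 and 9.26. The genotype difference was -0.022 (SE 0.12, limma adjusted p = 1.0, 95% interval -0.3 to 0.25), which is 0.81 to 1.19 times the wildtype level. Without the pair of arrays it was 0.01 (SE 0.09), so the sign depended on them. The pair lay at -0.35 from the mean of the other 6 arrays. Across the 16 probe sets, 3 had both arrays of the pair below the other 6 (Ctcf, Stag1 and the third Smc1a probe set), against 10.3% of all probe sets, and 3 had both above (Rec8, Stag3 and a Rad21 probe set), against 8.60%.

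The second Ctcf probe set (1418330_at) held 8.83, 8.76, 8.66, 8.67 and 8.73 in the wildtype arrays and 8.7, 8.82 and 8.58 in the mutants. Here wildtype replicate 7 lay in the middle of its genotype, and only mutant replicate 8 was low. The difference, -0.0308 (SE 0.08, limma adjusted p = 1.0), had the same sign as that of the main probe set, and it likewise turned without the pair, to 0.03 (SE 0.09). The profile of the main Ctcf probe set over the 8 arrays was most like those of Iqgap1, Eif4a1 and Robld3 among 12323 well-expressed genes. Likeness was the root mean square difference between levels centred on each gene's mean. It was 0.036, 0.037 and 0.044 for these genes, against a median of 0.19 over the candidates. As the smallest of 12323 values, these were bound to lie below the median. All 3 genes also had wildtype replicate 7 and mutant replicate 8 as their lowest 2 arrays, as did 10.3% of all probe sets.

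**Figure D2:**
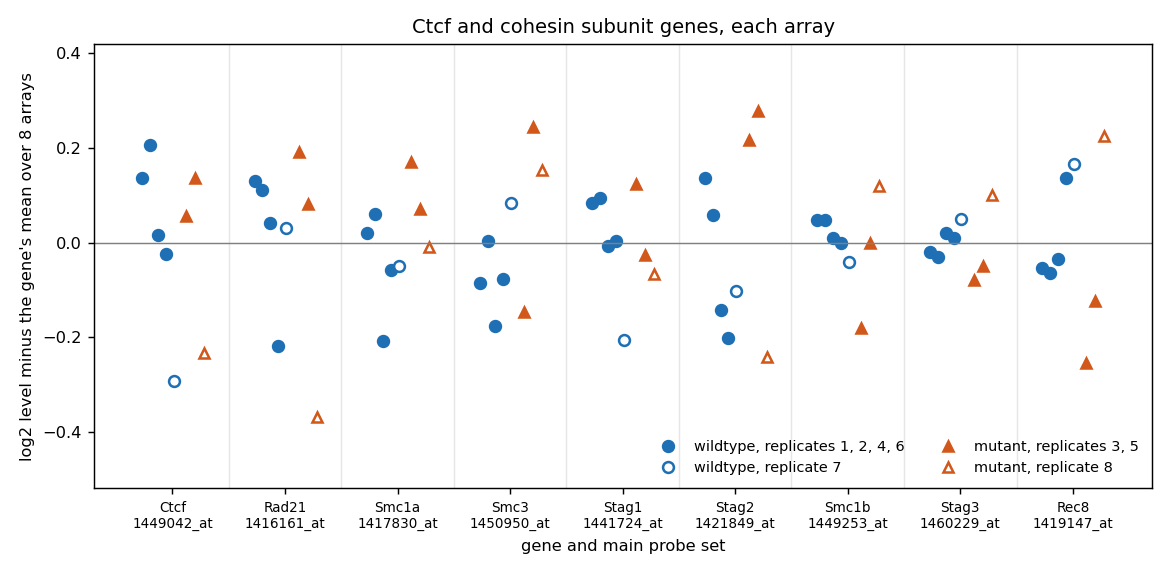
Log2 level of the main probe set of each gene minus its mean over the 8 arrays (y axis) for the 9 genes (x axis). Blue circles are wildtype and orange triangles mutant arrays, 1 point per array, with wildtype replicate 7 and mutant replicate 8 drawn open; the open symbols are the lowest 2 points of Ctcf and the highest 2 of Stag3 and Rec8.

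Stag2, a mitotic STAG protein, had its highest values in mutant replicates 3 and 5. Its main probe set (1421849_at) was at 7.98, 7.9, 7.7, 7.64 and 7.74 in the wildtype arrays and at 8.06, 8.12 and 7.6 in the mutants. Mutant replicate 8 was the lowest of all 8 arrays and the other mutants the highest, so the difference of 0.14 (SE 0.13, limma adjusted p = 1.0, 95% interval -0.15 to 0.42) joined opposite values. Without the pair of arrays the difference was 0.29 (SE 0.11), with a limma p of 0.0266 before and 0.753 after adjustment. The second probe set of Stag2 (1450396_at) did not repeat this order: mutant replicate 3 was its lowest array, at 7.5, and mutant replicate 5 its highest, at 8.02.

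Smc1a, the mitotic SMC1 and an X-linked gene like Stag2, was at 8.37, 8.41, 8.14, 8.29 and 8.3 in the wildtype arrays and at 8.52, 8.42 and 8.34 in the mutants (1417830_at). Mutant replicates 3 and 5 were the highest arrays and mutant replicate 8 lay inside the wildtype range. The difference of 0.12 (SE 0.08, 95% interval -0.05 to 0.3) had the smallest exact permutation p of the 16 probe sets, 0.143, and a limma adjusted p of 1.0. Of the 16 probe sets, 2 (these of Smc1a and Stag2) had mutant replicates 3 and 5 above all 4 wildtype arrays left without the pair, against 7.90% of all probe sets.

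Smc3, the SMC subunit common to both complexes, was at 9.33, 9.42, 9.24, 9.34 and 9.5 in the wildtype arrays and at 9.27, 9.66 and 9.57 in the mutants. Mutant replicates 5 and 8 were the highest arrays and mutant replicate 3 the second lowest, giving a difference of 0.14 (SE 0.1, limma adjusted p = 1.0, 95% interval -0.08 to 0.36).

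Rad21, the mitotic kleisin, was at 9.58, 9.56, 9.49, 9.23 and 9.48 in the wildtype arrays and at 9.64, 9.53 and 9.08 in the mutants on its main probe set (1416161_at). The highest and the lowest array were both mutant, and the difference of -0.054 (SE 0.13, limma adjusted p = 1.0, 95% interval -0.34 to 0.23) became 0.12 (SE 0.11) without the pair. Stag1 was at 6.87, 6.88, 6.78, 6.79 and 6.58 in the wildtype arrays and at 6.91, 6.76 and 6.72 in the mutants. Its lowest arrays were again the pair, and the difference was 0.0164 (SE 0.09, limma adjusted p = 1.0), or 0.0069 (SE 0.08) without the pair. A further 5 probe sets name Stag1 together with another locus and were not counted as Stag1: all 5 were lower in the mutant, by -0.15 to -0.022, with a smallest limma p of 0.108 and none past adjustment. Without the pair of arrays their differences ran from -0.1 to 0.05, and 2 of the 5 (1434189_at and 1450420_at) were higher in the mutant. Their wildtype means ran from 7.76 to 10.13, beside 6.78 for 1441724_at, the only probe set counted as Stag1. Stag3 minus Stag1, given below, rests on 1441724_at and was not computed on these 5.

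The meiotic subunits were all slightly lower in the mutant mean, none beyond the spread between arrays. Smc1b was at 11.08, 11.08, 11.04, 11.03 and 10.99 in the wildtype arrays and at 10.85, 11.03 and 11.15 in the mutants. The mutant arrays held both its lowest and its highest value, and their SD was 0.15 (n = 3) where that of the wildtype arrays was 0.04 (n = 5). The difference was -0.0338 (SE 0.08, limma adjusted p = 1.0), and the 95% interval of -0.2 to 0.13 leaves 0.87 to 1.1 times the wildtype level.

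Stag3, the meiotic STAG protein, was at 12.01, 12.0, 12.05, 12.04 and 12.08 in the wildtype arrays and at 11.95, 11.98 and 12.13 in the mutants. Mutant replicate 8 was the highest array and the other mutants the lowest 2. Its SD over the 8 arrays, 0.05, was larger than that of 5.8% of the brighter probe sets (those with a mean above the median), and all arrays fell within 0.17. The difference was -0.0176 (SE 0.06, limma adjusted p = 1.0), with a 95% interval of -0.16 to 0.13, or 0.89 to 1.09 times the wildtype level.

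Rec8, the meiotic kleisin, was at 8.55, 8.54, 8.57, 8.74 and 8.77 in the wildtype arrays and at 8.35, 8.48 and 8.83 in the mutants. The ends of the order were those of Stag3, with mutant replicate 8 at the top and mutant replicates 3 and 5 at the bottom. The difference was -0.0809 (SE 0.11, limma adjusted p = 1.0, 95% interval -0.33 to 0.17).

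In the 6 arrays without the pair, mutant replicates 3 and 5 lay below all 4 wildtype arrays for Smc1b, Stag3 and Rec8 alike, though the nearest arrays of Smc1b, mutant replicate 5 and wildtype replicate 6, both rounded to 11.03. These were 3 of the 16 probe sets, against 6.97% of all probe sets in the same direction, and none of the 13 probe sets of the other genes did so. The differences were -0.12 (SE 0.08), -0.06 (SE 0.07) and -0.18 (SE 0.09), and limma gave adjusted p of 0.843, 0.921 and 0.783. Within the pair the order was the reverse, with mutant replicate 8 above wildtype replicate 7 by 0.15, 0.05 and 0.06. With the pair as a block, which uses all 8 arrays, the differences were -0.042, -0.031 and -0.118, with limma adjusted p of 0.971, 0.973 and 0.912.

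Markers of spermatocytes, the cells in which these 3 genes are known to act, stood in the same order in part. Of 5 spermatocyte markers, 3 (Sycp1, Spo11 and Piwil1) also had mutant replicates 3 and 5 below the 4 wildtype arrays, against 6.97% of all probe sets. Sycp3 overlapped, and Dmc1 was at 8.31 and 8.52 against 7.93 to 8.36. The mean of the 5 was 10.56 and 10.71 in mutant replicates 3 and 5 and 10.64 to 10.8 in those 4 wildtype arrays, and none of the 5 lay below the array median on every array. The mean of 4 fat cell markers was lower too, at 5.32 and 5.52 against 5.7 to 6.3, with 2 of the 4 (Cfd and Car3) below all 4 wildtype arrays. For Cfd, mutant replicate 3 and wildtype replicate 1 both rounded to 5.94. In the other direction, the mean of 6 spermatogonia markers was 8.09 and 8.11 in these mutants against 7.8 to 7.96. Of the 6, 2 (Dmrt1 and Uchl1) lay above all 4 wildtype arrays, against 7.90% of all probe sets. The Sertoli cell mean of 6 markers was 8.78 and 8.71 against 8.52 to 8.7, with 2 of the 6 (Wt1 and Rhox5) above. The Leydig cell mean of 4 markers was 10.43 and 9.83 against 9.7 to 9.79, with 1 of the 4 (Star) above, and Cyp17a1 was at its lowest of the 8 arrays in mutant replicate 5, at 10.95. Of 4 peritubular cell markers, 0 lay below and 0 above, and their mean was 7.79 and 7.62 against 7.59 to 7.71. Among these 4, Acta2 lay below the array median on every array. The part of these cell types in the levels of Smc1b, Stag3 and Rec8 was not tested. In all 8 arrays no marker list had a gene past adjustment, nor had any of the 45101 probe sets. At an unadjusted limma p under 0.05 there were 2 of 6 spermatogonia markers, Gfra1 (0.35) and Uchl1 (0.26). There was 1 of 5 spermatocyte markers, Sycp1 (-0.25), and 1 of 4 Leydig cell markers, Star (0.5). The other marker lists had 0, and the share over all probe sets was 3.47%. The mean profile of the 3 meiotic subunits was most like those of Ggnbp2, Klhl11 and Dnalc1. The root mean square differences were 0.027, 0.03 and 0.034 over the 8 arrays, against a median of 0.15 over the candidates. These too were the smallest of 12323 values.

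Setting each meiotic subunit against its mitotic paralog within an array removes what moves both genes alike. The level of a pair difference depends on the probe sets and is not read, only its change between arrays. No test was run on these differences, because the genes were chosen with earlier results of the data known. For the SMC1 subunits, Smc1b minus Smc1a was 2.7, 2.66, 2.9, 2.74 and 2.69 in the wildtype arrays and 2.33, 2.61 and 2.8 in the mutants. Mutant replicates 3 and 5 were the lowest of the 8, and mutant replicate 8 lay inside the wildtype range. The wildtype mean was 2.74 ± 0.09 (SD, n = 5), the mutant mean 2.58 ± 0.24 (SD, n = 3), a difference of -0.16 (SE 0.12). It was -0.032 without mutant replicate 3, -0.27 without mutant replicate 8, and -0.006 when Smc1a was read from 1417832_at.

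For the kleisins, Rec8 minus Rad21 was -1.03, -1.02, -0.93, -0.49 and -0.71 in the wildtype arrays and -1.29, -1.04 and -0.26 in the mutants. The mutants held both the lowest and the highest arrays, and their mean differed from wildtype by -0.027 (SE 0.27). Of all 4 pairs this one varied most between arrays.

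For the STAG subunits, Stag3 minus Stag2 was 4.03, 4.11, 4.35, 4.41 and 4.33 in the wildtype arrays and 3.89, 3.86 and 4.53 in the mutants. Again mutant replicates 3 and 5 were lowest and mutant replicate 8 highest, with a mean difference of -0.15 (SE 0.19). Leaving out mutant replicate 5 gave -0.036, leaving out mutant replicate 3 gave -0.053, and leaving out mutant replicate 8 gave -0.37. Stag3 minus Stag1 was 5.14, 5.12, 5.28, 5.25 and 5.49 in the wildtype arrays and 5.04, 5.22 and 5.41 in the mutants, a difference of -0.034 (SE 0.12), and here mutant replicate 5 lay among the wildtype arrays. Genotypes overlapped in all 4 pairs over 8 arrays. Without the pair of arrays the differences were -0.28 for Smc1b minus Smc1a, -0.3 for Rec8 minus Rad21, -0.35 for Stag3 minus Stag2 and -0.067 for Stag3 minus Stag1, and the mutants lay below the wildtype arrays in the first 3 of these. Both sides of a pair entered these values: Smc1b gave -0.12 and Smc1a 0.17, Rec8 gave -0.18 and Rad21 0.12, and Stag3 gave -0.06 and Stag2 0.29. For Smc1b minus Smc1a and Stag3 minus Stag2 the separation followed from that of the single genes, given above, and adds nothing to it. The share of gene pairs in general that separate in this way was not computed. In Rec8 minus Rad21 the nearest arrays, mutant replicate 5 and wildtype replicate 1, differed by little, at -1.04 and -1.03.

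**Figure D3:**
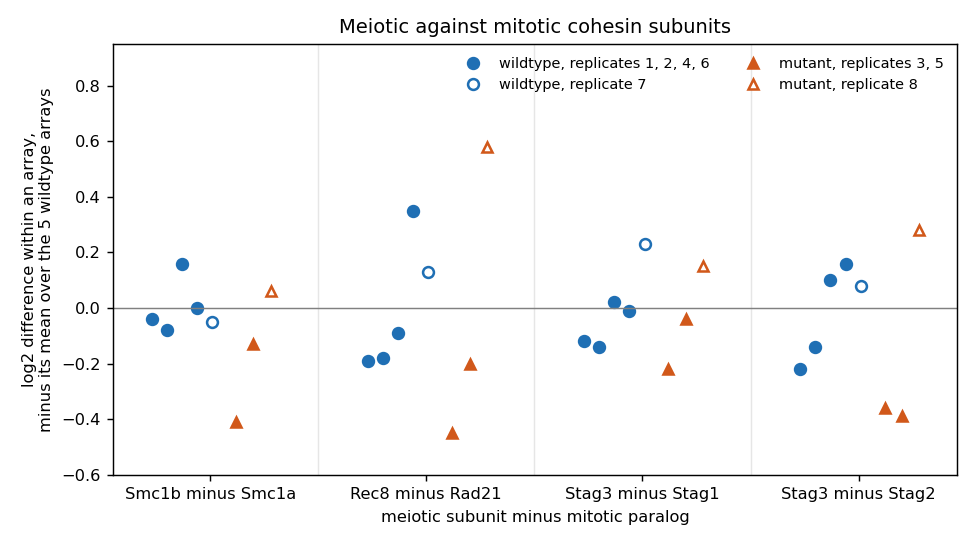
Difference in log2 level between a meiotic subunit and its mitotic paralog within an array, minus the mean of that difference over the 5 wildtype arrays (y axis), for 4 pairs (x axis). Blue circles are wildtype and orange triangles mutant arrays, 1 point per array, with wildtype replicate 7 and mutant replicate 8 drawn open; mutant replicates 3 and 5 lie lowest in 3 of the pairs, while mutant replicate 8 is the highest or second highest array in each.

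Probe sets of the same gene gave differences of 1 sign for Ctcf and Stag2 and of mixed sign for Rad21, Smc1a and Smc3. The main Rad21 probe set and 1455938_x_at followed each other, on the same side of their means in 7 of 8 arrays with a root mean square difference of 0.11 between centred levels. The suffix of the second marks probes that may also bind other transcripts, and its difference of -0.23 (SE 0.14, limma adjusted p = 1.0) was the largest of the 16 in size. Mutant replicate 8 lay at -0.72 from wildtype replicate 7 on it, and without these arrays the difference was -0.03 (SE 0.11). The remaining Rad21 probe set, 1416162_at, stood apart: its levels were 8.51, 8.36, 8.13, 8.23 and 8.66 in wildtype and 8.41, 8.48 and 8.56 in the mutants, with a difference of 0.11 (SE 0.12). On it the pair of arrays was highest, whereas mutant replicate 8 was lowest on both others. Its root mean square difference from them was 0.25 and 0.27, the second the largest among 9 comparisons of probe sets of the same gene.

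For Smc1a, 1417830_at and 1417831_at lay on the same side of their means in 8 of 8 arrays, although the second varied more. That second probe set ran from 6.57 to 7.27 in wildtype and was 6.91, 7.21 and 6.59 in the mutants, with a difference of 0.0731 (SE 0.17), or 0.2 (SE 0.18) without the pair. The third, 1417832_at, had a difference of -0.0278 (SE 0.09), or 0.0 (SE 0.08) without the pair, with wildtype replicate 7 and mutant replicate 8 both at 6.33 and the rest between 6.5 and 6.61. For Smc3, the main probe set and 1450951_at were on the same side in 3 of 8 arrays, and the second, with a difference of -0.11 (SE 0.08), lay below the median level of the array on every array. The direction of Rad21, Smc1a and Smc3 was therefore not the same on all of their probe sets, at differences that were within the spread between arrays on each.

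**Figure D4:**
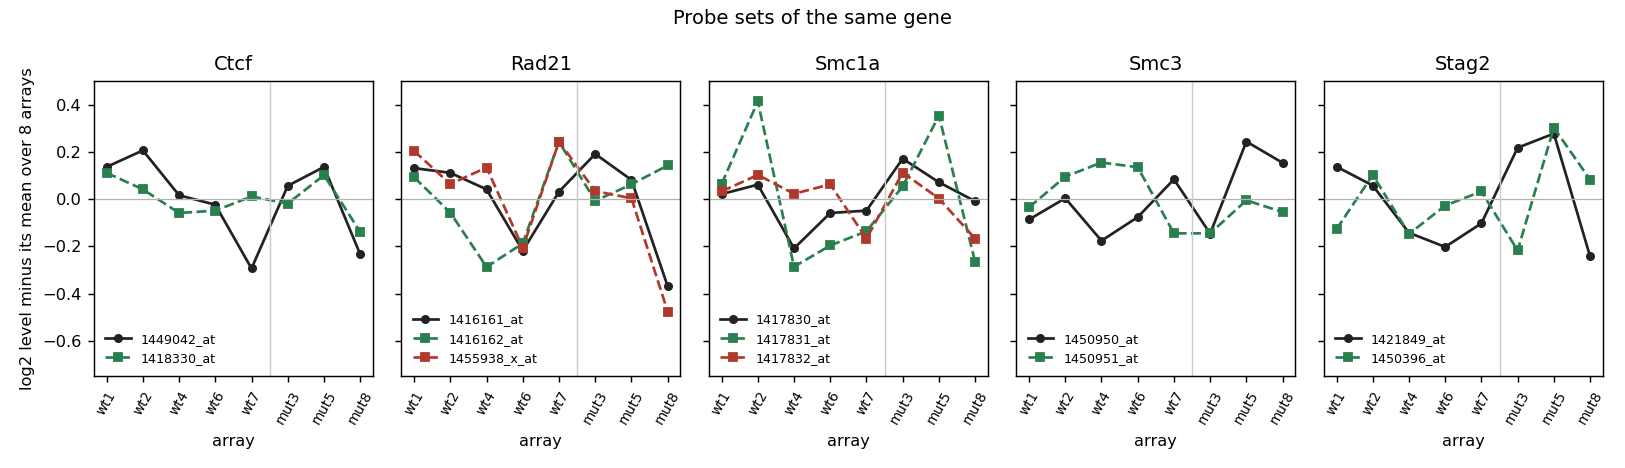
Log2 level minus its mean over the 8 arrays (y axis) for each probe set of Ctcf, Rad21, Smc1a, Smc3 and Stag2, over 5 wildtype (wt) and 3 mutant (mut) arrays with their replicate numbers (x axis). Solid lines are the main probe set, dashed lines the others, and lines only join points of the same probe set; Rad21 1416162_at is high in mut8, where the other Rad21 probe sets are at their lowest.

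Genes that load, release or cut cohesin were compared in the same way. Of 14 measured regulators, 0 passed at a limma adjusted p under 0.05, against 0.00% of all probe sets. At an unadjusted limma p under 0.05 the count was also 0, against 3.47% of all probe sets. In the mutant 7 regulators were higher and 7 lower, with a median difference of -0.0039. The lowest p in each direction belonged to Hdac8, the SMC3 deacetylase, at 0.12 (SE 0.07, limma adjusted p = 1.0), and Esco2, an SMC3 acetyltransferase, at -0.11 (SE 0.09, limma adjusted p = 1.0). Hdac8 lay below the array median on every array. Rad21l, a further meiotic kleisin, was not analysed here. Of the 5 other SMC genes, which form condensin and the SMC5/6 complex or stand alone, 1 was higher and 4 lower, none past either threshold, with Smc2 at 0.055 (SE 0.1) and Smc4, its partner in condensin, at -0.085 (SE 0.06). Of 8 genes for proteins known to work with CTCF, 4 were higher and 4 lower and 0 passed either threshold; Zfp143 was at 0.13 (SE 0.08) and Yy1 at -0.18 (SE 0.1), both with a limma adjusted p of 1.0. Zfp143 lay below the array median on every array. Counts of 0 in lists this short lie near the shares of all probe sets and say little about these genes.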

How the data were processed

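RNA of 8 testes at day 23 was hybridised to 1 array each. The sample titles gave the groups and the replicate numbers. The methods state that the authors applied quantile normalisation, RMA background correction and limma. The deposited values are log2 levels per probe set and array. The same table and 2 further deposited tables hold the authors' group means, fold changes and p-values, which were not used. The build of the array annotation is not given in the sources used here.

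The deposited log2 levels entered without further scaling or filtering. All 45101 probe sets were fitted with lmFit and eBayes of limma 3.58.1 (R 4.3.3) as a two-sided test, p-values were adjusted by Benjamini-Hochberg, and 95% intervals came from the moderated t distribution. Single probe sets were also tested by exact permutation over 56 assignments of the arrays (scipy 1.17.1). Further steps used Python 3.11.15, numpy 2.4.6, pandas 2.3.3 and matplotlib 3.10.9. Tested on simulated data over all 45101 probe sets, the fit found 42 of 67 probe sets set to differ by 0.5 (log2) and 62 of 67 set to differ by 1.0. The fit also made 7 false calls there. A further 66 probe sets were set to differ by 2.0, and many true differences at once ease the threshold after adjustment. In the deposited data 0 probe sets passed adjustment. The simulated shares therefore do not give the chance of finding such a difference in Ctcf or the cohesin genes. The number of arrays limits the precision, and the study calls the genotypes littermates without saying which animals shared a litter, so p-values measure the spread between these samples.

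The genes, the lists and the tests were chosen with earlier results of these data known. The main probe set of a gene names no other gene, carries no _s_at or _x_at suffix where one such exists, and has the highest mean level. From each list of related genes (cohesin regulators, other SMC genes, CTCF partners), the text names the gene with the lowest p in each direction. The genes most like a profile, 3 each, were taken from main probe sets above the median level. Older symbols in the file (9130404D08Rik, Wapal, Sgol1, Sgol2) were matched through Entrez IDs. Alternatives left out each array, changed the scaling, filter, prior or probe set, added array weights, an offset or the array pair as a block.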

Additional observations from a re-analysis of the deposited data

Results flagged for a closer look

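Among 16 probe sets and 4 paralog differences, the 5 wildtype arrays were examined for a single array far from the rest (Dixon's ratio of gap to range, above 0.71), which chance gives in about 1 of 20 groups, so 1.0 of the 20 examined. There were 2. Wildtype replicate 6 was low for the main Rad21 probe set, at 9.23 with the nearest wildtype array at 9.48 (ratio 0.718). Wildtype replicate 7 was low for Smc1a 1417832_at, at 6.33 with the nearest at 6.52 (ratio 0.714).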

How the results depend on the processing

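None of the 9 genes passed an adjusted p of 0.05 in any of 151 alternatives, where the lowest adjusted p was 0.753, and 132 kept the direction. No paired analysis was possible because the sources do not say which animals shared a litter. Leaving out 1 array at a time gave mutant minus wildtype differences from -0.098 to 0.088 for Ctcf, -0.17 to 0.11 for Rad21, -0.041 to 0.057 for Stag1, -0.1 to 0.045 for Smc1b, -0.07 to 0.016 for Stag3 and -0.22 to 0.021 for Rec8, all of which changed sign, and from 0.037 to 0.3 for Stag2, 0.077 to 0.17 for Smc1a and 0.057 to 0.25 for Smc3, which did not. Smc1b, Rec8 and Stag1 changed sign without mutant replicate 3, Stag3 without mutant replicate 3 or 5, Stag1 also without wildtype replicate 7, Rad21 without mutant replicate 8, and Ctcf without wildtype replicate 1 or 2 or mutant replicate 8. Smc1b minus Smc1a ran from -0.27 to -0.032 and Stag3 minus Stag2 from -0.37 to -0.036. Rec8 minus Rad21 ran from -0.33 to 0.19, positive without wildtype replicate 6 or 7 or mutant replicate 3 or 5, and Stag3 minus Stag1 from -0.13 to 0.056, positive without wildtype replicate 7 or mutant replicate 3. Ctcf turned positive with array weights (0.0057), with the array pair as a block (0.025) and without the pair (0.012), and Rad21 with array weights (0.028), without the pair (0.12) and on 1416162_at (0.11). Stag3 was at 0.0027 after repeated quantile normalisation. Other probe sets reversed Smc1a (1417832_at, -0.028), Smc3 (1450951_at, -0.11) and Rec8 minus Rad21 (1455938_x_at, 0.15). Over all probe sets the count past adjustment was 0, 1 with the pair as a block, and 1564 at an unadjusted p under 0.05. Leaving out the pair and fitting the pair as a block to the paralog differences were chosen after the data were seen. The cause of these sign changes was not tested. The width of the 95% intervals came from the spread within both genotypes, the limma prior over all probe sets and the small number of arrays, 5 and 3.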
